A study of Arabidopsis thaliana with 18 samples.

Results

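The transcripts described here are those that stood lower after 2 h without oxygen than in air in seedlings of 2 Arabidopsis mutants of the N-end rule pathway, prt6-1 and ate1 ate2. The question was how far the same transcripts fell in the wild type, Col-0. Of 22746 probe sets on the ATH1 array, 64 were chosen by differences of group means on the log2 scale: hypoxia minus air was at most -0.7 in each mutant, and each mutant minus Col-0 in air was above -0.5. IAA29, IAGLU, AT5G57760, AT5G62280 and the genes whose symbols start with EXPA, XTH, UGT or CYP had been set aside by name. Of the 64 members, 24 have exactly 1 gene in the platform annotation and are called by it, and 40 are not in the annotation used and have no name here.

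In Col-0 the same transcripts were mostly lower under hypoxia too, but by less. The members were chosen for a large fall in the mutants and not in Col-0, so a smaller Col-0 value is partly fixed by that choice. The median change over the 64 members was -0.48 in Col-0, beside -1.03 in prt6-1 and -0.98 in ate1 ate2, and 62 of the 64 stood below 0 in Col-0. Limma called 24 of the 64 (37.5%) lower in Col-0 at an adjusted p under 0.05, where 0.457% of all probe sets were called lower. The count rested on few arrays. Among the named members that fell in Col-0 were secretory peroxidases, a pectin methylesterase inhibitor-like gene, acyltransferases of the HXXXD family and a secreted CAP protein.

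The seedlings were 7 days old and came from seed kept in the cold for 3 days. They were grown in days with 16 h of light, and were exposed to argon or kept in air for 2 h from the end of the light period in dim light. Each of the 6 seedling groups (Col-0, prt6-1 and ate1 ate2, each in air and under hypoxia) has 2 arrays, which the series' design text describes as independent biological experiments. Seeds that had been kept in the cold for 48 h and imbibed for 24 h were measured in Col-0 and prt6-1, with 3 arrays each. The labels give 1 line for each mutant genotype, RNA came from whole seedlings or whole seeds, and the labels name no agent other than argon.

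PRT6 is a ubiquitin ligase that recognises proteins with a basic N-terminal residue, and ATE1 and ATE2 are the transferases that create such residues, by adding arginine to acidic or oxidised cysteine N-termini. The pathway removes the group VII ERF transcription factors when oxygen is present, and these factors drive the anaerobic response. Under oxygen shortage plants also lower many transcripts of growth, and the plant cell wall is a main place where growth is carried out: pectin methylesterases and their inhibitors set the charge and stiffness of pectin, endoglucanases act on cellulose, and class III peroxidases in the wall either cross-link its polymers or make the radicals that loosen them.

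Seedling replicates correlated at 0.995 to 0.997 over all probe sets, and the median of an array was 6.70 to 6.88 in log2 units. All 10 of 10 well known anaerobic genes rose in Col-0 under hypoxia, with a median change of 4.36, as the hypoxia labels of the Col-0 arrays require. The list was chosen with earlier results of these data known, so this is not an independent check of the labels. Their median change was 1.96 in prt6-1 and 1.39 in ate1 ate2, where they already stood higher in air. In air their summed linear level was 740 to 880 in Col-0, 7851 to 8064 in prt6-1 and 9243 to 9416 in ate1 ate2. No probe set in the annotation used carries the name of PRT6, ATE1 or ATE2, so the genotype labels were not checked by the mutated genes. The number of arrays, 2 in each seedling group, limits the precision of every value given. A lower value in whole seedlings can mean less RNA per cell or fewer cells that hold it, and these cannot be told apart here.

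The limits of the rule chose the members, so the values it used are a description. At most -0.7 was reached by 148 probe sets in prt6-1 and by 138 in ate1 ate2, and 74 reached it in both. The limit in air left out 3 of these and the names left out 7. The member nearest to the limit, AT4G25790, stood at -0.71 in both mutants. The nearest named probe sets outside were AT3G53250, at -0.66 in prt6-1, and AT5G19800, at -0.69 in ate1 ate2. In Col-0 those genes differed widely, with -0.49 for AT4G25790, -0.94 for AT3G53250 and -0.04 for AT5G19800. The 7 probe sets left out by name ranged in Col-0 from -2.01 for AT5G57760 to 0.07 for IAA29.

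Array by array, the members separated hypoxia from air in every genotype. The median member, set against its own mean in Col-0 air, stood at -0.12 and 0.12 on the Col-0 air arrays and at -0.49 and -0.50 on the Col-0 hypoxia arrays. In prt6-1 it stood at 0.42 and 0.22 in air and at -0.69 and -0.77 under hypoxia. In ate1 ate2 it stood at 0.37 and 0.69 in air and at -0.45 and -0.58 under hypoxia. At this median the mutant air arrays stood above Col-0 in air, while under hypoxia ate1 ate2 lay near Col-0 and prt6-1 somewhat below it. The rule chose the members on these mutant arrays. The separation in the mutants was thus largely fixed by that choice, and their high air values were favoured by it.

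**Figure D1:**
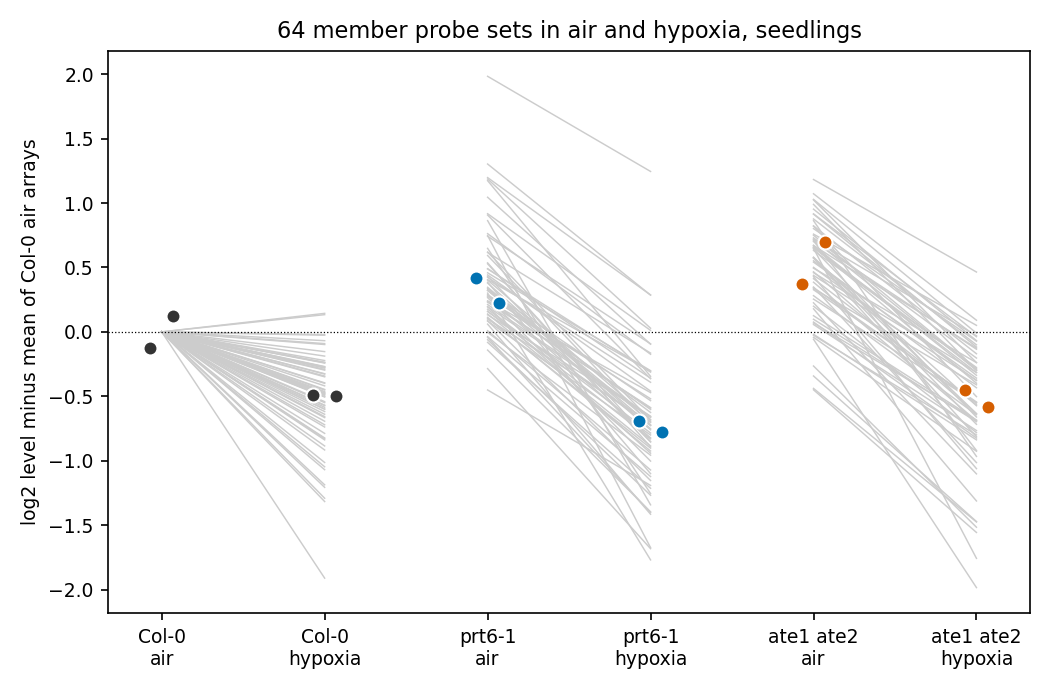
Log2 level of the 64 members in each seedling group, each set against that member's mean over the 2 Col-0 air arrays; a grey line joins the group means of 1 member in air and hypoxia, and each coloured point is the median of the members on 1 array. The Col-0 hypoxia points lie at -0.49 and -0.50, and the mutant air points, from 0.22 to 0.69, all lie above the Col-0 air points.

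The Col-0 air arrays entered the rule only through the limit of -0.5 on mutant minus Col-0 in air, and the Col-0 hypoxia arrays did not enter it. Without that limit there were 67 probe sets, of which 25 were called lower in Col-0, with a median of -0.48. The 3 that the limit had left out had Col-0 changes of -0.70 to -0.02 and a median of -0.26, and 1 of them was called. The median change of all probe sets in Col-0 was -0.01.

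No member was called higher in Col-0 by limma, nor at an unadjusted p under 0.05, where 1.64% and 5.93% of all probe sets were. At an unadjusted p under 0.05, 42 members (65.6%) were lower, beside 4.57% of all probe sets. Both Col-0 hypoxia arrays lay below both Col-0 air arrays in 49 members (76.6%), beside 19.3% of all probe sets. The same separation held in all 64 members in both mutants, where it was met by 26.4% of all probe sets in prt6-1 and 24.6% in ate1 ate2. The rule used those contrasts, and nothing is read from these counts.

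The count of calls in Col-0 rested on few arrays. The count of 24 was 17 when replicate 1 of the wild type in air was dropped and 10 when its replicate 2 was. Dropping a wild-type hypoxia array left 11 (replicate 1) or 8 (replicate 2). A single fit of all 18 arrays called 14. The Col-0 air arrays also differed from each other on these transcripts: replicate 1 was below replicate 2 in 57 of 64 members, by a median of 0.25 on the log2 scale. This was not particular to Col-0. In ate1 ate2 air replicate 1 was below replicate 2 in 55 members, with a median of -0.27 for replicate 1 minus replicate 2. In prt6-1 air it was below in 23, with a median of 0.17, and in Col-0 hypoxia in 31, with a median of 0.01. For the 40 members not called in Col-0, the 95% interval of the change reached -0.7 in 17 and excluded it in 23, and it included 0 in 22.

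Expressed as a share of the mean change in both mutants, the Col-0 change had a median of 44.8% and ranged from -18.3% to 97.5%. It was of the opposite sign in 2 members, between 0 and 25% in 9, between 25 and 50% in 24, between 50 and 75% in 18 and between 75 and 100% in 11. The Col-0 difference was smaller than that of both mutants in 57 members, lay between them in 7 and was larger than both in 0. Because the members were chosen for a large difference in the mutants and not in Col-0, a smaller Col-0 value is partly fixed by that choice, and the difference between the genotypes was given no test.

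**Figure D2:**
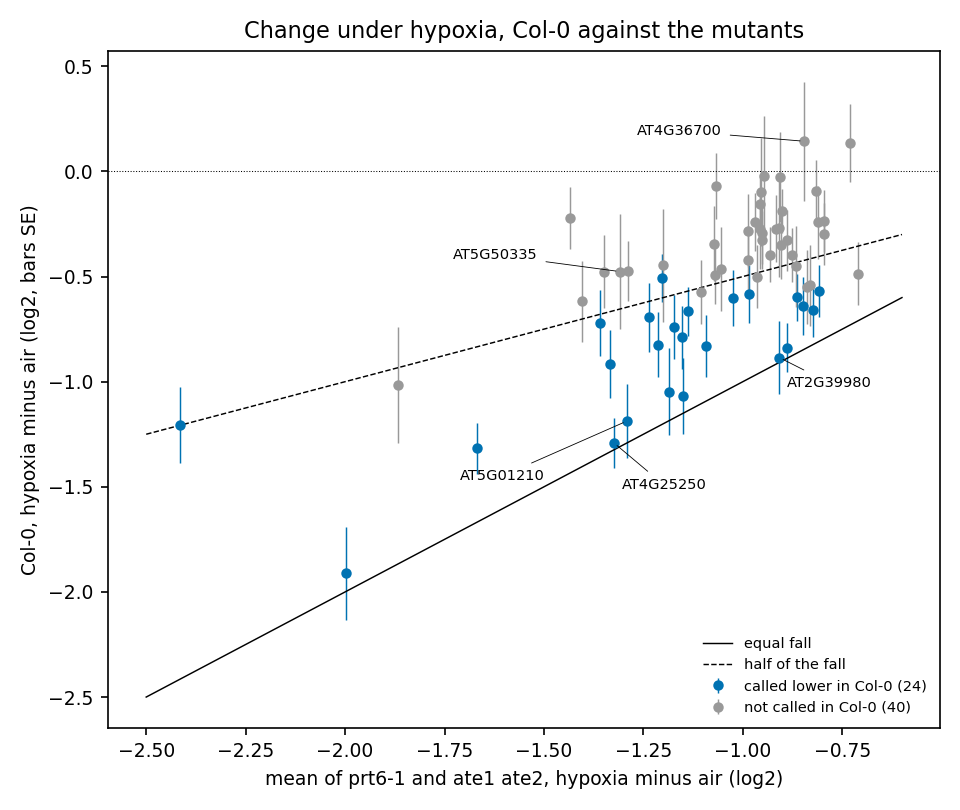
Hypoxia minus air in Col-0 (vertical axis, log2, bars are the standard error from limma) against the mean of the same difference in prt6-1 and ate1 ate2 (horizontal axis, log2) for the 64 members, blue where limma called Col-0 lower. No member lies below the solid line of equal change, and AT4G25250 and AT2G39980 lie almost on it, at 97.5% of the mutant value.

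Among the 24 named members, 4 encode class III peroxidases, enzymes secreted to the cell wall. Of these 4, AT3G49960 and AT2G39040 were called lower in Col-0, where 0.457% of all probe sets were. In all 4, both Col-0 hypoxia arrays lay below both Col-0 air arrays, as in 19.3% of all probe sets. For AT3G49960 the log2 levels in Col-0 were 7.80 and 8.00 in air and 7.21 and 7.27 under hypoxia. In prt6-1 they were 8.30 and 8.04 in air and 6.92 and 6.88 under hypoxia, and in ate1 ate2 they were 8.55 and 8.60 in air and 7.66 and 7.47 under hypoxia. Every hypoxia array was lower than every air array, and both mutants started above Col-0. The Col-0 change was -0.67 (SE 0.12, limma adjusted p = 0.00468), a fall of 1.59-fold, beside -1.27 in prt6-1 and -1.01 in ate1 ate2.

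AT2G39040, another peroxidase, began within 0.03 of Col-0 in both mutants. Its Col-0 arrays read 6.95 and 7.16 in air and 6.49 and 6.43 under hypoxia. The prt6-1 arrays read 7.14 and 6.97 in air and 6.18 and 6.03 under hypoxia, and the ate1 ate2 arrays read 6.95 and 7.11 in air and 6.27 and 6.25 under hypoxia. The air and hypoxia arrays did not overlap in any genotype, and here the lower level in the mutants was reached under hypoxia. It fell by 0.60 in Col-0 (SE 0.11, limma adjusted p = 0.00841), beside -0.95 in prt6-1 and -0.77 in ate1 ate2. Both peroxidase calls were lost when replicate 2 of the wild type in air, or its replicate 1 under hypoxia, was dropped. The call of AT2G39040 was lost with replicate 2 under hypoxia dropped as well. A single fit of all 18 arrays also ended both calls, with limma adjusted p of 0.134 for AT3G49960 and 0.662 for AT2G39040.

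The other peroxidases, AT4G26010 and AT1G30870, did not pass the test in Col-0. AT4G26010 read 9.16 and 9.41 in Col-0 air and 8.79 and 8.78 under Col-0 hypoxia. It read 9.59 and 9.34 in prt6-1 air against 8.63 and 8.37 under hypoxia, and 9.89 and 9.99 in ate1 ate2 air against 9.19 and 8.75 under hypoxia. The groups did not overlap within a genotype, and ate1 ate2 in air stood above every other array. Its Col-0 change was -0.50 (SE 0.15, limma adjusted p = 0.132), beside -0.96 and -0.97 in prt6-1 and ate1 ate2.

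AT1G30870 is the member that was also on the list of root hair genes. In Col-0 it read 8.97 and 9.30 in air and 8.80 and 8.64 under hypoxia. In prt6-1 it read 9.57 and 9.40 in air and 8.52 and 8.30 under hypoxia, and in ate1 ate2 9.44 and 9.91 in air and 8.87 and 8.69 under hypoxia. All 4 mutant air arrays exceeded both Col-0 air arrays. The Col-0 change was -0.42 (SE 0.16, limma adjusted p = 0.297), beside -1.07 in prt6-1 and -0.90 in ate1 ate2.

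The rest of the peroxidase family was read beside these 4. Of 74 listed class III peroxidase genes, a list added after the values were seen, 55 had a probe set of their own. Their median change was -0.02 in Col-0, -0.19 in prt6-1 and -0.09 in ate1 ate2. The 4 of the 55 that reached -0.7 in both mutants are the members themselves, where 74 of all 22746 probe sets did so. That count restates the choice of the members. In Col-0, 3 of the 55 were called lower and 1 higher, where 0.457% and 1.64% of all probe sets were. At an unadjusted p under 0.05, 10 of the 55 were lower, the 4 members among them, and 3 were higher, beside 4.57% and 5.93% of all probe sets. The remaining gene that fell was AT2G18980, at -0.41, and the gene that rose was AT4G31760, at 0.85.

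**Figure D3:**
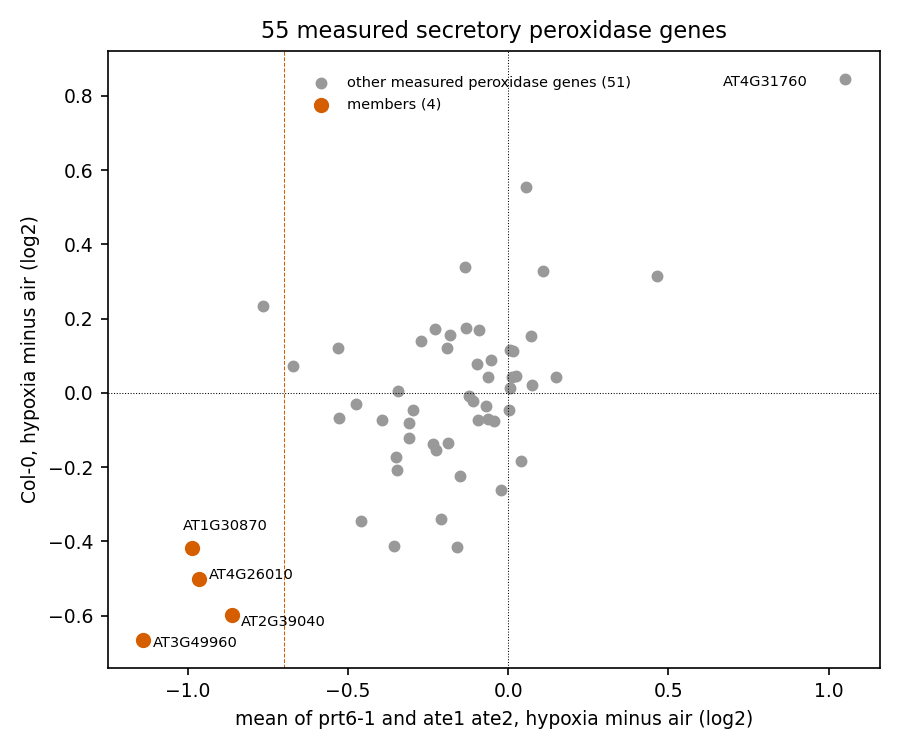
Hypoxia minus air in Col-0 (vertical axis, log2) against the mean of both mutants (horizontal axis, log2) for the 55 measured class III peroxidase genes, with the 4 members in orange and the dashed line at -0.7. The members lie between -0.42 and -0.67 in Col-0, while the family has a median of -0.02 there.

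A further 4 named members act on pectin or cellulose, and 1 of them was called lower in Col-0, where 0.457% of all probe sets were. AT4G25250, of the family of pectin methylesterase and invertase inhibitors, read 7.56 and 7.90 in Col-0 air and 6.50 and 6.38 under Col-0 hypoxia. The prt6-1 arrays read 7.51 and 7.38 in air and 6.08 and 6.01 under hypoxia, and the ate1 ate2 arrays read 7.46 and 7.47 in air and 6.19 and 6.24 under hypoxia. In air all 4 mutant arrays lay below both Col-0 arrays, and every hypoxia array lay below every air array. It fell 2.45-fold in Col-0, a log2 change of -1.29 (SE 0.12, limma adjusted p = 6.84e-06), next to -1.40 in prt6-1 and -1.25 in ate1 ate2. This call was kept under all 20 alternative settings.

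AT5G62360, of the same inhibitor family, stood higher in the mutants throughout. It read 7.57 and 7.78 in Col-0 air and 7.16 and 7.29 under Col-0 hypoxia. In prt6-1 it read 8.86 and 9.09 in air and 7.94 and 7.98 under hypoxia, and in ate1 ate2 8.44 and 9.28 in air and 8.14 and 8.14 under hypoxia. Even under hypoxia all 4 mutant arrays exceeded both Col-0 air arrays. The Col-0 change of -0.45 (SE 0.19, limma adjusted p = 0.402) did not pass the test, and the mutants stood at -1.02 and -0.72.

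GH9C1 (AT1G48930), an endoglucanase of glycoside hydrolase family 9, and AT5G04960, a pectin methylesterase, showed small Col-0 changes. GH9C1 read 7.17 and 6.98 in Col-0 air and 6.82 and 6.75 under Col-0 hypoxia, a change of -0.29 (SE 0.15, limma adjusted p = 0.551), beside -0.86 in prt6-1 and -1.04 in ate1 ate2. AT5G04960 read 7.06 and 7.49 in Col-0 air and 7.16 and 7.21 under Col-0 hypoxia, so its groups overlapped. Its Col-0 change was -0.09 (SE 0.14, limma adjusted p = 0.916), beside -0.76 and -0.87 in the mutants, where it read 7.87 and 7.59 in prt6-1 air and 8.03 and 8.12 in ate1 ate2 air. Under hypoxia the mutants stood between -0.24 and 0.02 of Col-0 for both genes, whereas in air they were 0.32 to 0.80 above it.

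The HXXXD acyltransferases, a plant family that attaches acyl groups to alcohols and amines, gave 2 members, and both fell in Col-0, by 91.9% and 97.5% of the mean mutant change. AT5G01210 read 8.77 and 9.08 in Col-0 air and 7.57 and 7.92 under Col-0 hypoxia. In prt6-1 it read 9.31 and 8.67 in air and 7.48 and 7.54 under hypoxia, and in ate1 ate2 8.42 and 8.54 in air and 7.42 and 7.33 under hypoxia. No hypoxia array reached any air array. The fall in Col-0 was 2.28-fold, with a log2 change of -1.19 (SE 0.18, limma adjusted p = 0.00111), and it was called under all 20 alternative settings.

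AT2G39980 read 6.98 and 7.20 in Col-0 air and 6.22 and 6.20 under Col-0 hypoxia. Its prt6-1 arrays read 7.92 and 7.74 in air and 7.01 and 6.99 under hypoxia, and its ate1 ate2 arrays read 6.93 and 7.65 in air and 6.25 and 6.37 under hypoxia. The prt6-1 arrays lay above Col-0 by 0.74 in air and by 0.79 under hypoxia, whereas ate1 ate2 under hypoxia was 0.10 above Col-0. Its Col-0 change of -0.89 (SE 0.17, limma adjusted p = 0.0112) was 97.5% of the mean mutant change, and the call was lost when replicate 2 of the wild type in air, or any of its hypoxia arrays, was dropped, and in the fit of all 18 arrays (limma adjusted p = 0.12).

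Another 3 members encode small secreted proteins of the CAP superfamily, which includes the plant pathogenesis-related protein PR1. In each of the 3 both Col-0 hypoxia arrays lay below both Col-0 air arrays, as in 19.3% of all probe sets. Limma called 1 of the 3 lower, where 0.457% of all probe sets were. AT4G30320 read 7.21 and 7.65 in Col-0 air and 6.73 and 6.74 under Col-0 hypoxia, a change of -0.69 (SE 0.16, limma adjusted p = 0.0402), beside -1.08 in prt6-1 and -1.39 in ate1 ate2. That call was lost when replicate 2 of the wild type in air, or any hypoxia array of the wild type or prt6-1, was dropped, and in the fit of all 18 arrays (limma adjusted p = 0.255). AT4G25790 stood at -0.49 in Col-0 (SE 0.15, limma adjusted p = 0.155) and AT4G33730 at -0.40 (SE 0.13, limma adjusted p = 0.199), and neither passed the test.

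Both transcription factors among the named members missed the test in Col-0. AT5G58900, a MYB-related protein, read 8.23 and 8.34 in Col-0 air and 7.77 and 8.15 under Col-0 hypoxia. It read 8.65 and 8.68 in prt6-1 air and 7.59 and 7.48 under hypoxia, and 8.57 and 8.92 in ate1 ate2 air and 7.90 and 8.04 under hypoxia. The mutants stood above Col-0 in air, and prt6-1 alone stood below both Col-0 arrays under hypoxia. The Col-0 change was -0.32 (SE 0.14, limma adjusted p = 0.403), beside -1.13 and -0.77.

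AT2G43140, a basic helix-loop-helix protein, read 4.38 and 4.80 in Col-0 air and 4.37 and 4.62 under Col-0 hypoxia. It read 5.74 and 5.81 in prt6-1 air, 4.73 and 5.89 in ate1 ate2 air, and 4.48 to 4.70 on the 4 mutant hypoxia arrays. The Col-0 groups overlapped, and the mutants under hypoxia came down to the range of Col-0 in air. The Col-0 change was -0.10 (SE 0.26, limma adjusted p = 0.958), beside -1.16 in prt6-1 and -0.75 in ate1 ate2.

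Of the 5 named members with other roles none was called in Col-0, and none had an unadjusted p under 0.05 there. AT3G23550, a transporter of the MATE family, stood at -0.28, AT5G02540, of the short-chain dehydrogenase family, at -0.27, and AT1G19900, a galactose oxidase-like protein, at -0.24. AT1G54540, of the family of hydroxyproline-rich LEA-like glycoproteins, and AT4G36700, a cupin of the seed storage type, were the 2 members with a Col-0 value above 0.

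AT4G36700 read 5.62 and 5.87 in Col-0 air and 5.97 and 5.81 under Col-0 hypoxia, a difference of 0.14 (SE 0.28). In prt6-1 it read 7.45 and 8.01 in air and 7.02 and 6.96 under hypoxia, and in ate1 ate2 6.02 and 7.31 in air and 5.73 and 5.69 under hypoxia. The prt6-1 arrays in air stood 1.98 above Col-0, and both ate1 ate2 hypoxia arrays were just below the Col-0 hypoxia arrays. AT1G54540 read 6.38 and 6.67 in Col-0 air and 6.61 and 6.71 under Col-0 hypoxia, a difference of 0.13 (SE 0.19). Its mutant hypoxia arrays, from 5.97 to 6.27, all lay below the Col-0 arrays.

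The last 4 named members are given no role here, and 1 of these, AT5G55620, fell in Col-0. It read 10.27 and 10.32 in Col-0 air and 9.81 and 9.58 under Col-0 hypoxia, a change of -0.60 (SE 0.13, limma adjusted p = 0.027). Under hypoxia it read 8.98 and 8.82 in prt6-1 and 9.64 and 9.56 in ate1 ate2, from air levels of 10.08 and 10.23 in prt6-1 and 10.19 and 10.60 in ate1 ate2. Thus prt6-1 under hypoxia stood 0.80 below Col-0 while ate1 ate2 stood 0.10 below it. The call was lost when any of the 4 Col-0 seedling arrays was left out, and in the fit of all 18 arrays (limma adjusted p = 0.751).

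AT5G50335 rested on 1 array. It read 3.97 and 5.23 in Col-0 air and 4.14 and 4.11 under Col-0 hypoxia, so the air arrays lay on either side of the hypoxia arrays. Its Col-0 change was -0.48 (SE 0.27, limma adjusted p = 0.615). With air replicate 1 dropped it was -1.11 (limma adjusted p = 0.00285), and with air replicate 2 dropped it was 0.16. In the mutants the air arrays read 4.94 to 5.45 and the hypoxia arrays 3.85 to 3.96. AT5G12050 and AT3G50340 stood at -0.47 and -0.30 in Col-0 and were not called.

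**Figure D4:**
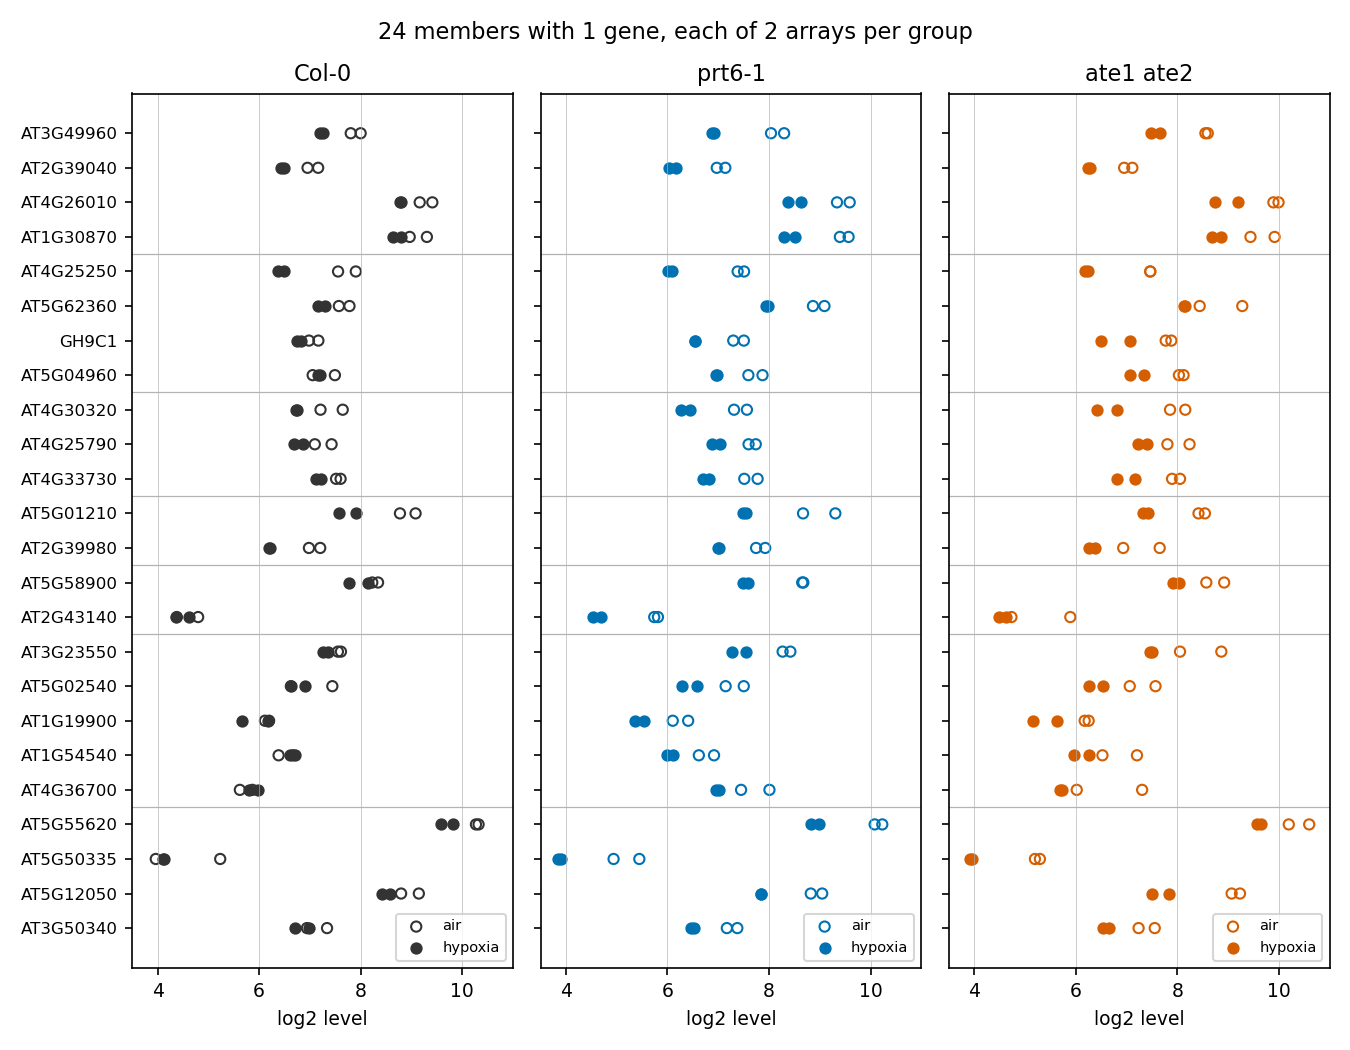
Log2 level of the 24 named members on each of the 2 arrays per group, air as open and hypoxia as filled circles, in Col-0, prt6-1 and ate1 ate2, with thin lines between groups of genes by role (from the top: peroxidases, pectin and cellulose, CAP proteins, acyltransferases, transcription factors, others, no role given). In Col-0 both hypoxia arrays lie below both air arrays in 16 of the 24, as in 19.3% of all probe sets. AT5G50335 shows its Col-0 air arrays at 3.97 and 5.23.

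Of the 40 members with no gene here, 17 were called lower in Col-0, where 0.457% of all probe sets were. The Col-0 changes of the 40 ran from -1.91 to -0.02 with a median of -0.55. The member lowest in the mutants read 9.19 and 9.94 in Col-0 air and 8.44 and 8.28 under Col-0 hypoxia, a change of -1.21 beside -2.42 in prt6-1 and -2.41 in ate1 ate2. The member lowest in Col-0 read 6.86 and 7.89 in Col-0 air and 5.43 and 5.50 under Col-0 hypoxia, a change of -1.91 beside -2.07 and -1.93. Both Col-0 hypoxia arrays were below both Col-0 air arrays in each of them, and the second lost almost as much in Col-0 as in the mutants, 95.6% of their mean. Names that the rule leaves out could not be applied to these 40 probe sets, and 3 of them carry the suffix of probe sets that match several transcripts.

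Before hypoxia the mutants stood above Col-0 in most members. In air both mutants stood above Col-0 in 51 members and below it in 3, with medians of 0.32 for prt6-1 and 0.56 for ate1 ate2 minus Col-0. All 4 mutant air arrays lay above both Col-0 air arrays in 26 members (40.6%), where 10.6% of all probe sets did so. Since the rule set a lower limit on these differences and chose members by a large drop from mutant air, a high mutant air value favoured membership, and these differences have no test and nothing is read from these counts.

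Under hypoxia both mutants lay within 0.5 of Col-0 in 45 members, where 94.6% of all probe sets did so. In air they lay within 0.5 of Col-0 in 26 members, where 94.4% did so, and the high mutant air values that the rule favoured enter this count. The median of prt6-1 minus Col-0 under hypoxia was -0.24, with 45 members below 0, and that of ate1 ate2 minus Col-0 was 0.00, with 32 members on either side. All 4 mutant hypoxia arrays lay below both Col-0 hypoxia arrays in 17 members (26.6%), beside 15.6% of all probe sets. All 6 hypoxia arrays, of whatever genotype, lay below all 6 air arrays in 36 members, beside 1.31% of all probe sets. The rule used the mutant arrays of each of these counts, and they are given as a description.

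Between the mutants, the drop was larger in prt6-1 in 32 members and larger in ate1 ate2 in the other 32. The rule set the same limit on both drops, so an even split was favoured by the choice and nothing is read from it. Among named members the gap was widest for AT5G55620, at -1.25 in prt6-1 and -0.79 in ate1 ate2, and in the opposite direction for AT5G12050, at -1.09 and -1.49. Across the 64 members the Col-0 change correlated with that of prt6-1 at r = 0.74 (Spearman 0.60) and with that of ate1 ate2 at r = 0.48 (Spearman 0.32). Over all 22746 probe sets these were r = 0.53 (Spearman 0.24) and r = 0.48 (Spearman 0.28). The points are probe sets measured on the same arrays, each axis rests on 2 air and 2 hypoxia arrays, and the members were cut by their mutant values.

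Since AT1G30870 is a root hair gene, the whole list of root hair genes was read beside the members. Of 39 listed genes 9 had a probe set of their own, among them AT1G30870, a member, and EXPA7 and EXPA18, expansins that the rule leaves out. None of the 9 was called in Col-0 by limma, and 2 were lower at an unadjusted p under 0.05, as were 4.57% of all probe sets. The median change of the 9 was -0.09 in Col-0, -0.17 in prt6-1 and -0.45 in ate1 ate2. Of the 9, 3 reached -0.7 in both mutants, where 74 of all 22746 probe sets did so. The summed linear level of the 9 was 1687 to 1941 in Col-0 air and 1506 to 1599 under Col-0 hypoxia. It was 1992 to 2133 and then 1422 to 1431 in prt6-1, and 2304 to 2928 and then 1571 to 1671 in ate1 ate2. The sum was thus lower under hypoxia than in air in each genotype. It contains AT1G30870, EXPA7 and EXPA18, the 3 that reached -0.7 in both mutants. Its drop in the mutants is therefore partly fixed by the rule, and it is not a reading apart from the members. In Col-0 these 3 stood at -0.42, -0.24 and -0.61. The other genes of the list stood between -0.14 (AT5G06630) and 0.20 (AT3G28550) there. The part of root hair genes in the change of the members was not tested. RMA values do not reach 0, so no marker could be read as absent.

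Other lists held no member. For the auxin response genes this was partly fixed by the rule: IAA29 is on that list and reached the limit in both mutants, at -0.71 in prt6-1 and -1.23 in ate1 ate2. It was left out by name. Of 28 auxin response genes 8 were measured, with medians of -0.01 in Col-0, -0.27 in prt6-1 and -0.36 in ate1 ate2. Limma called none of them in Col-0, and 1 was lower at an unadjusted p under 0.05, as were 4.57% of all probe sets. The 2 measured genes of 20 for photosynthesis, LHCB4.1 of the light-harvesting antenna and RCA, the Rubisco activase, stood at -0.04 and 0.03 in Col-0 and were called neither at an adjusted nor at an unadjusted p under 0.05. Of 22 cell cycle and histone genes 2 were measured, with a median of -0.34 in Col-0, and of 11 clock genes 1, at -0.29. None of those 3 was called by limma in Col-0, though all 3 were lower at an unadjusted p under 0.05, beside 4.57% of all probe sets.

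The seed arrays took no part in the choice of the members and ask whether the same transcripts differ between prt6-1 and Col-0 without hypoxia treatment. Seeds were not at the anaerobic level of seedlings in air. The summed linear level of the 10 anaerobic genes was 5266 to 5394 in Col-0 seeds, beside 740 to 880 in Col-0 seedlings in air. It was 16264 to 16991 in prt6-1 seeds, where 9 of the 10 were called higher than in Col-0 seeds. Limma called 3 of 64 members lower in prt6-1 seeds (4.69%, against 1.91% of all probe sets) and 1 higher (1.56%, against 2.19%). At an unadjusted p under 0.05 there were 11 (17.2%), against 19.6% of all probe sets. All prt6-1 seed arrays lay below all Col-0 seed arrays in 7 members, where 13.5% of all probe sets did so, and above them in 3, where 12.3% did so. In 4 members prt6-1 lay below Col-0 in seeds and above it in seedlings in air with no overlap in either, a pattern that 3.07% of all probe sets had. The median difference was -0.17, with 46 members below 0, and that over all probe sets was -0.02. In seeds 36 of the 64 members were among the dimmest 33.3% of probe sets. With those left out of the fit, 28 members were tested, of which 5 were called lower (17.9%, against 3.94% of the probe sets in that fit) and 2 higher (7.14%, against 4.85%).

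The peroxidase AT1G30870 was the named member called in seeds. It read 5.76, 5.89 and 6.17 in Col-0 seeds and 5.22, 4.96 and 5.31 in prt6-1 seeds. The groups did not overlap, and the difference was -0.78 (SE 0.14, limma adjusted p = 0.024). The call was lost in 5 of the 6 fits that left out 1 seed array, all but the fit without Col-0 replicate 1, with adjusted p up to 0.0899. The unnamed members called lower in seeds differed by -2.82 (SE 0.31, limma adjusted p = 0.00207) and -1.28 (SE 0.24, limma adjusted p = 0.0257), and that called higher differed by 0.76 (SE 0.15, limma adjusted p = 0.0295).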

How the data were processed

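RNA of 12 seedling and 6 seed samples had been hybridised to ATH1 arrays. The deposited table holds log2 values for 22810 probe sets. Per the submitters' processing notes they come from RMA and affy, with versions not given in the sources used here, nor whether seeds and seedlings were normalized together. RMA equalises the distributions of the arrays and so takes out any shift common to most transcripts. The 64 AFFX control probe sets were left out. Of the other 22746, 13513 have 1 gene in GEO's platform annotation, which can be old, 503 several and 8730 none.

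Groups came from the sample titles. A cell-means model was fitted with limma 3.58.1 in R 4.3.3, over the 12 seedling arrays for Col-0 hypoxia minus air and over the 6 seed arrays for prt6-1 minus Col-0, with two-sided p-values adjusted by Benjamini-Hochberg over all 22746. The fit was checked on simulated data. Contrasts the rule used were not tested. The members and lists were chosen with earlier results of these data known, and roles came from background knowledge after the values were seen. All 24 members with 1 gene were open to naming, by size of change, lists, calls in seeds and nearness to the limits. No class of gene descriptions could be formed.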

Additional observations from a re-analysis of the deposited data

Results flagged for a closer look

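In 4 members prt6-1 stood below Col-0 in seeds and above it in air-grown seedlings, with no overlap between the arrays of the genotypes in either tissue. They are 6.25% of the 64 members, and 3.07% of all probe sets had the same pattern. The opposite directions are what drew attention to them, and the difference between the tissues was not tested. For the peroxidase AT1G30870, prt6-1 minus Col-0 was -0.78 in seeds and 0.35 in seedlings in air. For 3 members without a gene here the pairs of values were -0.57 in seeds and 0.62 in seedlings, -1.28 and 0.32, and -0.49 and 0.20. The seedling side of each pair is bounded by the rule, which takes only members above -0.5 there and favours high mutant values in air.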

How the results depend on the processing

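With 2 arrays in each seedling group, leaving out 1 Col-0 array leaves a lone array that is assumed to vary like the other groups. Members called lower in Col-0, 24 in the reported fit, ranged from 8 to 27 when 1 array was left out, and numbered 14 in 1 fit of all 18 arrays, 7 when only single-gene probe sets were tested (24 members in the fit) and 13 of 23 when the limit was -1 in both mutants. Counting members whose Col-0 hypoxia arrays both lay below both air arrays, an alternative chosen after seeing the data, gave 49. The Col-0 median of -0.48 was -0.69 with the limit of -1 and ranged from -0.62 to -0.38 with 1 array left out. The number of members, 64, was 23 with the limit of -1 and ranged from 44 (without ate1 ate2 air replicate 2) to 74 (without ate1 ate2 air replicate 1), with 43 and 63 of the 64 among them. In seeds, members called lower, 3 as reported, numbered 5 with the dimmest 33.3% of probe sets left out (28 members in the fit), 1 with single-gene probe sets, 5 with an intensity trend and 6 in 1 fit of all 18 arrays, and members called higher, 1 as reported, numbered 2 with the dimmest left out, 0 with single-gene probe sets and 0 with the replicate block. With 1 seed array left out these ranged from 1 to 4 and from 0 to 1. Same-numbered seedling arrays did not deviate together (r from -0.23 to 0.26 over 15 pairs of groups, and from -0.08 to -0.02 in seeds), so the numbers are not taken as pairs; with the replicate block 26 members were called lower in Col-0, and 3 lower in seeds. Uncalled Col-0 changes that turned sign with 1 array left out ranged from -1.11 to 0.16 for AT5G50335, -0.31 to 0.13 for AT5G04960, -0.68 to 0.14 for AT5G02540, -0.31 to 0.11 for AT2G43140, -0.50 to 0.017 for AT1G19900 and -0.0094 to 0.28 for AT1G54540. Over the named genes and settings, 448 of 478 Col-0 values kept their direction and side of the threshold, 22 lost a call and 1 gained one. The single-gene fits hold fewer members by construction; the cause of the other shifts was not tested.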

Other observations

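Most of these transcripts read lower in seeds than in seedlings. In Col-0, the seed mean minus the mean of the seedlings in air had a median of -1.63 over the 64 members, and 43 of them (67.2%) were lower in seeds by at least 1, against 14.5% of all probe sets. Members had to stand well above their hypoxia level in mutant seedlings in air, so a seedling level above that of seeds is partly fixed by the choice. The peroxidase AT4G26010 was lower by 4.09 on the log2 scale and AT5G55620 by 4.50. In the other direction, the helix-loop-helix gene AT2G43140 was higher in seeds by 3.25 and the acyltransferase AT2G39980 by 2.71. The sources used here do not say whether both tissues went through RMA together, and the difference was given no test.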
